A study of Homo sapiens with 20 samples.

Results

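Expression of genes of the epithelial-mesenchymal transition (EMT) was followed across the drug treatments: the transcription factors SNAI1, SNAI2, TWIST1, ZEB1 and ZEB2, the mesenchymal markers VIM and FN1, and the cadherins CDH1 and CDH2. These 9 genes are named members of the EMT program, taken from the 18417 genes with a symbol of their own on the array, and each was read by its transcript cluster with the highest mean over all 20 arrays. The cells were MDA-MB-231, a widely used line from a human breast cancer that lacks hormone receptors and has a mesenchymal appearance. Cells received 36 µM cisplatin, a platinum drug that crosslinks DNA, for 12 h (Cis 12 h) or 24 h (Cis 24 h), 10 µM TM (ammonium tetrathiomolybdate, a copper chelator) for 12 h (TM 12 h) or 24 h (TM 24 h), or both drugs together (Cis/TM 12 h and Cis/TM 24 h), and were set against cells given vehicle (Control). Expression was read on Affymetrix Human Gene 1.0 ST arrays, with 2 arrays in TM 12 h and 3 arrays, lettered A to C, in each other group. All groups are the same unsorted cell line in culture. The methods describe vehicle wells collected at both times, but the labels give the 3 Control arrays no time, so the same arrays served at 12 h and at 24 h and every comparison with Control shares them. The treatments were given in triplicate wells, and whether the wells came from separate experiments is not stated, so p-values measure the spread between these samples, and the number of arrays limits the precision.

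EMT is the change by which epithelial cells lose their adherens junctions and gain a migratory, matrix-producing state. SNAI1, SNAI2, ZEB1 and ZEB2 are zinc finger repressors that bind E-box sequences, among them those of the E-cadherin gene CDH1, and TWIST1 is a basic helix-loop-helix factor that acts on the same program. In the switch as it is usually described, E-cadherin gives way to N-cadherin (CDH2), and the intermediate filament protein vimentin (VIM) and the matrix protein fibronectin (FN1) become abundant.

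The E-box that SNAI and ZEB proteins recognize is CAGGTG, or CACCTG on the other strand. The 250 bases before the gene's start are shown for ZEB1 and ZEB2, whose levels were lowered together, and for FN1, whose level was raised. They are RefSeq sequence on GRCh38.p14, read 5′ to 3′ on the strand of the gene, with E-boxes in capitals. ZEB1 lies on the plus strand (chr10:31318167-31318416), and ZEB2 (chr2:144520120-144520369) and FN1 (chr2:215436069-215436318) lie on the minus strand.
ZEB1: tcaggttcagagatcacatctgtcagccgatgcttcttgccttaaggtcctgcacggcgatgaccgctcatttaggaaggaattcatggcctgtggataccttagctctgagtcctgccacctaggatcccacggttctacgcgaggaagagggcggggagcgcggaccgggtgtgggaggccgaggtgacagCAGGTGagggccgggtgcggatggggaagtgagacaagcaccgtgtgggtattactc
ZEB2: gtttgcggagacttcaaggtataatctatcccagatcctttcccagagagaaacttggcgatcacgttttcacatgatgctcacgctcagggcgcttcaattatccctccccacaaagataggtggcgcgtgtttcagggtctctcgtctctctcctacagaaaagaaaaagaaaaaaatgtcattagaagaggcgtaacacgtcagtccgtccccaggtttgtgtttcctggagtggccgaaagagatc
FN1: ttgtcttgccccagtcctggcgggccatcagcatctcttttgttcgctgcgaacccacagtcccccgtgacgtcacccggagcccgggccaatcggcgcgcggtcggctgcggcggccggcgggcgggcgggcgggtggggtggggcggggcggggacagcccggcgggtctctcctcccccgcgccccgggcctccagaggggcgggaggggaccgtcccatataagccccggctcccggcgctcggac
The ZEB1 window held 1 E-box, which began 57 bases before the start, and the ZEB2 and FN1 windows held none, nor did those of VIM or CDH2 at the gene's start. Of 35116 windows of this length over all genes in the RefSeq set, 6143 (17.5%) held the motif in either orientation. RefSeq promoters were matched for 5 of the 9 genes, in 12 windows of which 2 held the motif. None was matched for SNAI1, SNAI2, TWIST1 or CDH1, so their promoters were not searched. Both windows with the motif belong to ZEB1, which has several starts and supplied 7 of the 12 windows. A match describes the letters of the window and is not a site of binding.

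The values are log2 intensities that the authors summarized with RMA, so a difference of 1 is a doubling. A gene is called raised or lowered at an adjusted p under 0.05 (limma, Benjamini-Hochberg over all 18417 genes of the comparison) together with a fold change over 1.5. Across genes, Pearson's r was 0.983 to 0.997 between arrays of a group, and 0.932 to 0.982 between a treated and a Control array. Array medians ran from 5.75 to 5.94 on treated arrays and from 5.71 to 5.77 on Control arrays, and the SD over genes from 2.03 to 2.18 on treated arrays and from 2.01 to 2.03 on Control arrays. Among genes called against Control, 70.1% were raised in Cis 24 h (59.6% after cyclic loess), and 66.9% were raised in TM 24 h (56.7% after quantile normalization). Centring the arrays on their medians gave higher shares, 76.8% and 69.8%. The share was highest in TM 12 h (74.3%) and lowest in Cis 12 h (57.8%). These became 84% and 51.8% with median centring, and 67.2% and 48.1% after cyclic loess. The array numbers in the labels run in blocks by group, so any effect of processing order cannot be told apart from the group. On the second principal component, Cis 12 h A scored 35.2 and its group mates 2.42 and 8.24, while TM 24 h A scored 19.1 and its group mates −2.64 and −7.74. Basal B markers, which this line is known to express, averaged between 8.62 (EGFR) and 11.5 (CD44) in Control, and the 5 luminal markers between 3.82 (PGR) and 5.87 (FOXA1). The 9 immune, fibroblast and endothelial markers averaged between 3.31 and 4.89 in Control.

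SNAI1, which encodes Snail, carried the largest movement of the 9 genes. On the arrays treated with cisplatin it read 7.42, 7.64 and 7.27 (log2) at 12 h and 5.53, 5.30 and 5.31 at 24 h, and on the Control arrays 4.65, 4.42 and 3.77. With the drug pair the readings were 7.33, 7.03 and 7.06 at 12 h and 5.16, 4.78 and 4.93 at 24 h, whereas TM by itself gave 5.03 and 4.85 at 12 h and 5.04, 4.77 and 5.09 at 24 h. Every treated array lay above every Control array, and the 6 arrays with 12 h of cisplatin lay more than 1 log2 unit above all others. Control C was the lowest of all 20 arrays. SNAI1 was raised in all 6 comparisons, by 3.16 in Cis 12 h (8.94-fold, standard error 0.17, adjusted p = 8.9e-11), where it ranked 5th of 18417 genes from the top, and by 2.86 in Cis/TM 12 h (7.25-fold, standard error 0.17, adjusted p = 3.6e-10). At 24 h it was raised by 1.10 in Cis 24 h (2.14-fold, adjusted p = 7.2e-05) and by 0.68 in Cis/TM 24 h (1.60-fold, adjusted p = 0.0105). TM alone gave 0.66 at 12 h (adjusted p = 0.0181) and 0.69 at 24 h (adjusted p = 0.00882). Without Control C, the call was lost in Cis/TM 24 h (0.42) and with TM at 12 h (0.41) and at 24 h (0.43), with adjusted p from 0.0501 to 0.0773. The same 3 were not called when only the arrays compared entered the fit (adjusted p from 0.0943 to 0.137).

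SNAI2, which encodes Slug, had a narrower range and a different order of groups. At 12 h its log2 readings were 8.86, 8.97 and 8.88 with cisplatin, 8.84, 8.71 and 8.88 with the drug pair and 7.92 and 7.99 with TM, and Control had 8.21, 8.36 and 8.31. At 24 h cisplatin gave 8.09, 8.14 and 8.17, the drug pair 7.93, 7.90 and 7.88 and TM 7.70, 7.81 and 8.08. The arrays with 12 h of cisplatin lay above all Control arrays and all other treated arrays lay below them. SNAI2 was raised by 0.61 in Cis 12 h (1.52-fold, standard error 0.10, adjusted p = 3.3e-05), and the difference of 0.51 in Cis/TM 12 h did not reach 1.5-fold (95% interval 0.31 to 0.72, adjusted p = 0.000218). The differences in the other groups were also under 1.5-fold, with −0.34 (12 h) and −0.43 (24 h, adjusted p = 0.00381) for TM, −0.39 for Cis/TM 24 h and −0.16 for Cis 24 h. The call in Cis 12 h was close to its fold threshold, and it was lost under median centring (0.56), quantile normalization (0.51), cyclic loess (0.45), and without Cis 12 h B (0.58) or Control A (0.56).

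TWIST1 was called in none of the comparisons. The 12 h arrays held 6.10, 6.13 and 5.89 (log2) with cisplatin, 5.84, 6.16 and 5.82 with the drug pair and 5.79 and 5.85 with TM, while Control held 5.96, 5.89 and 5.93. The 24 h arrays held 5.80, 5.77 and 5.90 with cisplatin, 5.76, 5.53 and 5.77 with the drug pair and 6.14, 5.73 and 5.81 with TM. Neighbours in the order of group means overlapped except TM 12 h and Cis/TM 24 h, the lowest pair. Differences from Control ran from 0.12 in Cis 12 h (95% interval −0.13 to 0.36) to −0.24 in Cis/TM 24 h (−0.49 to 0.01), so changes above 1.5-fold lay outside each of these intervals.

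**Figure D1:**
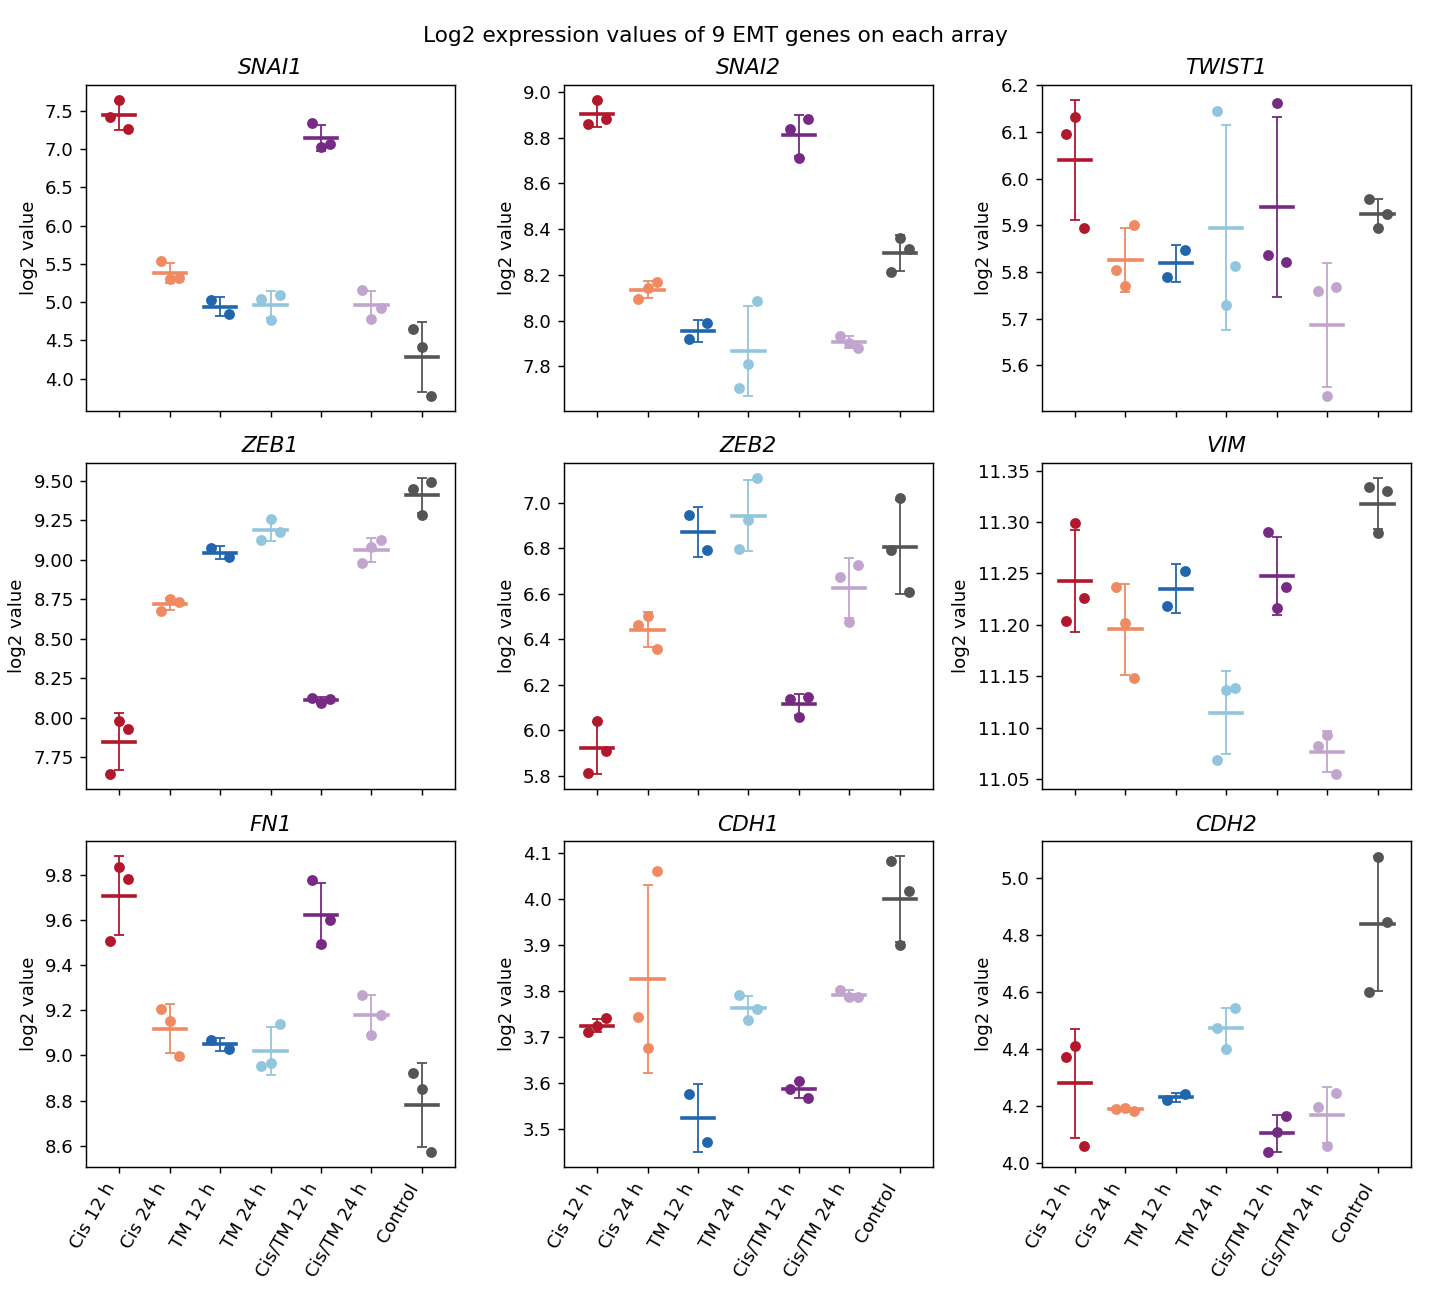
Log2 value of each of the 9 genes (y axis, scale set per gene) on every array, by group (x axis); points are arrays, horizontal bars group means and whiskers the SD. SNAI1 lies between 7.03 and 7.64 on the 6 arrays with 12 h of cisplatin and between 3.77 and 5.53 on all others, and ZEB1 is lowest on the same 6 arrays.

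ZEB1, a zinc finger repressor that binds E-boxes, moved in the opposite direction to SNAI1. Cisplatin arrays stood at 7.64, 7.98 and 7.93 (log2) at 12 h and 8.68, 8.76 and 8.73 at 24 h, arrays of the drug pair at 8.13, 8.09 and 8.12 at 12 h and 8.98, 9.08 and 9.12 at 24 h, and Control arrays at 9.45, 9.28 and 9.50. TM arrays stood at 9.08 and 9.02 at 12 h and 9.12, 9.26 and 9.18 at 24 h. All treated arrays lay below all Control arrays, and the lowest were the 6 arrays with 12 h of cisplatin. ZEB1 was lowered with a log2 difference of −1.56 in Cis 12 h (2.95-fold, standard error 0.10, adjusted p = 3.2e-10), −1.30 in Cis/TM 12 h (2.46-fold, standard error 0.10, adjusted p = 3.6e-09), and for cisplatin at 24 h −0.69 (1.61-fold, standard error 0.10, adjusted p = 1.9e-05). The differences with TM, −0.36 at 12 h (adjusted p = 0.0186) and −0.22 at 24 h (adjusted p = 0.111), and with the drug pair at 24 h, −0.35 (adjusted p = 0.0162), were not called.

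ZEB2, the paralog of ZEB1, was lowered in both groups with 12 h of cisplatin. With 12 h of treatment the log2 readings were 5.81, 6.04 and 5.91 for cisplatin, 6.13, 6.06 and 6.14 for the drug pair and 6.95 and 6.79 for TM, and those of Control 6.79, 7.02 and 6.61. With 24 h of treatment cisplatin had 6.46, 6.50 and 6.35, the drug pair 6.67, 6.47 and 6.72 and TM 6.79, 6.92 and 7.11. The arrays of Cis 12 h, Cis/TM 12 h and Cis 24 h lay below all Control arrays, and those of the other groups overlapped with Control. ZEB2 was lowered with −0.89 in Cis 12 h (1.85-fold, standard error 0.11, adjusted p = 2.7e-06), and the drug pair at 12 h gave −0.69 (1.62-fold, standard error 0.11, adjusted p = 5.5e-05). The difference in Cis 24 h was −0.37 (adjusted p = 0.017) and was not called. A second transcript cluster of ZEB2 read 2.56 in Cis 12 h and 2.95 in Control, and with the mean of both clusters the difference in Cis/TM 12 h was −0.58 and not called.

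VIM, which encodes the intermediate filament protein of mesenchymal cells, was among the highest signals of the array. Cisplatin arrays held 11.20, 11.30 and 11.23 (log2) at 12 h and 11.24, 11.20 and 11.15 at 24 h, and Control arrays 11.33, 11.29 and 11.33. The drug pair gave 11.29, 11.22 and 11.24 at 12 h and 11.08, 11.09 and 11.05 at 24 h, and TM gave 11.22 and 11.25 at 12 h and 11.07, 11.14 and 11.14 at 24 h. The 20 arrays spanned 11.05 to 11.33, and VIM was called in no comparison. Its difference farthest from 0 was −0.24 in Cis/TM 24 h (1.18-fold, 95% interval −0.40 to −0.08, adjusted p = 0.0326), and the intervals of all 6 comparisons with Control lay within 1.5-fold of no change.

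FN1, which encodes fibronectin, rose where SNAI1 was highest. After 12 h its readings were 9.51, 9.83 and 9.78 (log2) with cisplatin, 9.77, 9.49 and 9.60 with the drug pair and 9.07 and 9.03 with TM, and Control read 8.92, 8.85 and 8.57. After 24 h cisplatin read 9.21, 9.15 and 9.0, the drug pair 9.27, 9.09 and 9.18 and TM 8.95, 8.97 and 9.14. All treated arrays lay above all Control arrays. FN1 was raised by 0.92 in Cis 12 h (1.90-fold, standard error 0.12, adjusted p = 1.8e-06) and by 0.84 in Cis/TM 12 h (1.79-fold, standard error 0.12, adjusted p = 6.7e-06). The other 4 differences were not called, and the lowest and highest were 0.24 (TM 24 h) and 0.40 (Cis/TM 24 h, adjusted p = 0.0208).

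CDH1, which encodes E-cadherin, had a low signal on all arrays, and 11.9% of the genes had a lower mean. The log2 readings at 12 h were 3.71, 3.72 and 3.74 for cisplatin, 3.59, 3.60 and 3.57 for the drug pair and 3.58 and 3.47 for TM, with 4.08, 3.90 and 4.02 in Control. Those at 24 h were 3.74, 3.68 and 4.06 for cisplatin, 3.80, 3.79 and 3.79 for the drug pair and 3.79, 3.74 and 3.76 for TM. CDH1 was called in none of the comparisons, although its values lay below Control in all groups except 1 array of Cis 24 h. At 12 h the differences were −0.48 with TM (1.39-fold, adjusted p = 0.0028), −0.41 with the drug pair (1.33-fold, adjusted p = 0.00141) and −0.28 with cisplatin, and at 24 h −0.24, −0.21 and −0.17 for the same treatments. So low a signal may be background, with or without a transcript behind it, and RMA compresses differences there.

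CDH2, which encodes N-cadherin, also had a low signal, with 21.8% of the genes below its mean. Cisplatin gave 4.37, 4.41 and 4.06 (log2) at 12 h and 4.19, 4.19 and 4.18 at 24 h, the drug pair 4.04, 4.11 and 4.17 at 12 h and 4.20, 4.06 and 4.25 at 24 h, and Control arrays had 4.60, 5.07 and 4.85. With TM the readings were 4.22 and 4.24 at 12 h and 4.48, 4.40 and 4.54 at 24 h. Control arrays were the highest in every comparison and overlapped with no treated group. CDH2 was lowered with −0.74 in Cis/TM 12 h (1.67-fold, standard error 0.11, adjusted p = 2.8e-05), −0.67 in Cis/TM 24 h (1.59-fold, adjusted p = 0.000444), −0.65 in Cis 24 h (1.57-fold, adjusted p = 0.00019) and −0.61 in TM 12 h (1.53-fold, adjusted p = 0.00174). The differences in Cis 12 h (−0.56, 1.47-fold, adjusted p = 0.000438) and TM 24 h (−0.37, adjusted p = 0.0274) were not called. All 4 calls were lost under cyclic loess (−0.41 to −0.55), and those of Cis/TM 24 h, Cis 24 h and TM 12 h without Control B (−0.49 to −0.56), the highest of the 3 Control arrays. Quantile normalization lost those of Cis 24 h (−0.52) and TM 12 h (−0.47). The TM 12 h call was also lost under median centring (−0.55) and when only the arrays compared entered the fit. Cis 12 h gained a call under median centring (−0.61) and without Cis 12 h A (−0.60), Cis 12 h B (−0.62) or Control A (−0.68).

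**Figure D2:**
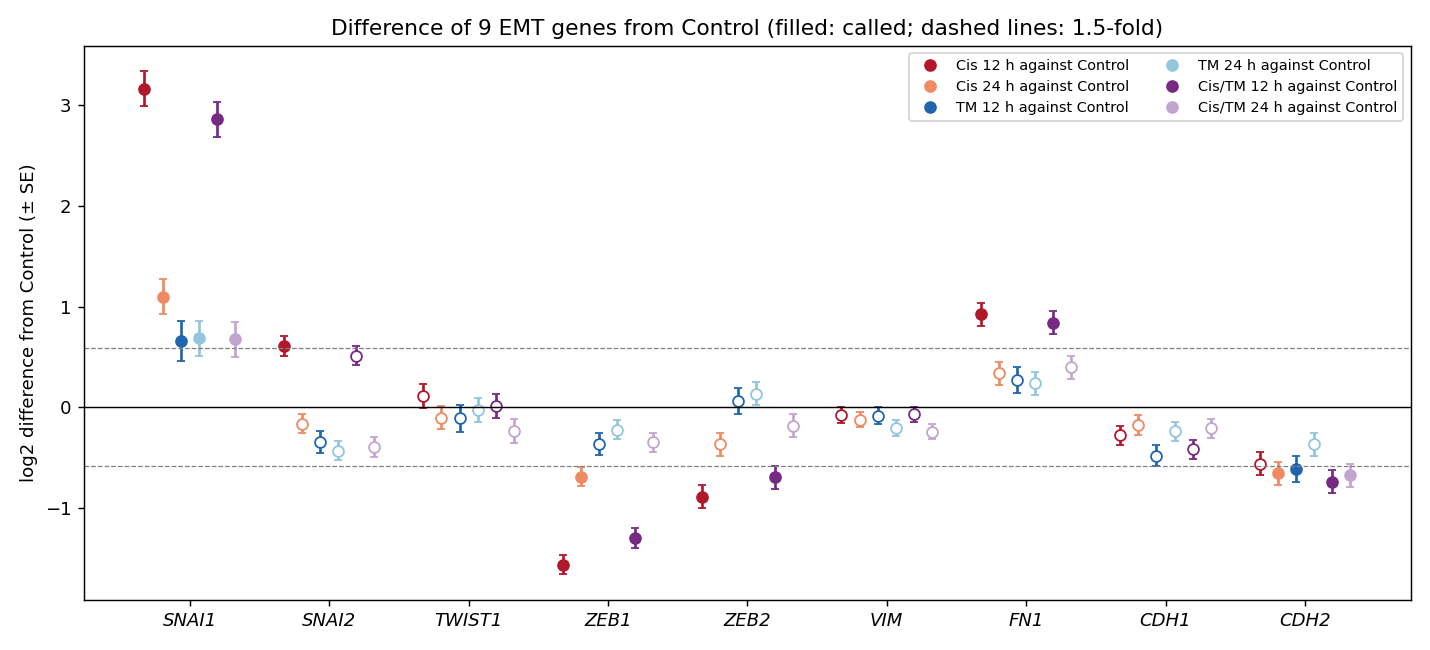
Log2 difference from Control (y axis) of each of the 9 genes (x axis), with the standard error of the limma fit, for each of the 6 treatment groups; filled points are called and dashed lines mark a fold of 1.5. SNAI1 lies above the upper line in all 6 groups, ZEB1, ZEB2 and CDH2 fall below the lower line in some, and TWIST1, VIM and CDH1 stay between the lines.

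Over the 9 genes, 6 were called in at least 1 comparison with Control and 3 in none. In Cis 12 h, 3 were raised, against 14.8% of all genes, and 2 were lowered, against 10.8% of all genes. In Cis/TM 12 h, 2 were raised (background 15.2%) and 3 lowered (8.55%). In Cis 24 h, 1 was raised (11.5%) and 2 lowered (4.9%), and in Cis/TM 24 h 1 was raised (4.54%) and 1 lowered (2.48%). With TM, 1 was raised (8.99%) and 1 lowered (3.11%) at 12 h, and 1 was raised (5.16%) and 0 lowered (2.55%) at 24 h, where 6 of the 9 and 33.7% of all genes had an unadjusted p under 0.05. The median difference of the 9 genes was −0.08 in Cis 12 h and −0.07 in Cis/TM 12 h, with medians of all genes of −0.01 and −0.05. With 9 genes these counts describe single genes, and nothing is read from them about the group.

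The effect of adding TM to cisplatin was tested directly. None of the 9 genes was called in Cis/TM 12 h against Cis 12 h, a comparison in which 0 of 18417 genes (0%) were called, although 1 of the 9 and 1732 of all genes had an unadjusted p under 0.05. That gene was ZEB1, at 8.11 ± 0.02 (SD, n = 3) in Cis/TM 12 h and 7.85 ± 0.18 (SD, n = 3) in Cis 12 h, a difference of 0.26 (95% interval 0.06 to 0.47, adjusted p = 0.381). For SNAI1 the difference was −0.30 (95% interval −0.67 to 0.06). In Cis/TM 24 h against Cis 24 h, 0 of the 9 genes were called (1.5% of all genes), and 3 had an unadjusted p under 0.05 (17.5% of all genes). They were SNAI1 with −0.42 (95% interval −0.79 to −0.06, adjusted p = 0.2), SNAI2 with −0.23 and ZEB1 with 0.34 (adjusted p = 0.0547).

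The effect of adding cisplatin to TM was large at 12 h. In Cis/TM 12 h against TM 12 h, 4 of the 9 genes were called, against 13.6% of all genes. SNAI1 was higher by 2.20 (4.59-fold, adjusted p = 8.2e-08) and SNAI2 by 0.86 (1.81-fold, adjusted p = 6.6e-06), and ZEB1 was lower, at −0.93 (adjusted p = 2.2e-06), as was ZEB2, at −0.76 (adjusted p = 0.000177). With the mean of both ZEB2 clusters that difference was −0.40 and was not called (adjusted p = 0.0226). FN1 differed by 0.57 (adjusted p = 0.00252), just under 1.5-fold. In Cis/TM 24 h against TM 24 h, 0 of the 9 genes were called (6.28% of all genes). An unadjusted p under 0.05 was found for 2 of the 9, ZEB2 with −0.32 and CDH2 with −0.30, and for 24.7% of all genes. SNAI1 differed by −0.01 there (95% interval −0.38 to 0.36).

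The change with time was tested within each treatment, and without a Control for each time it cannot be told apart from time in culture. In Cis 24 h against Cis 12 h, 4 of the 9 genes were called (10.6% of all genes). SNAI1 was lower in Cis 24 h, with −2.06 (4.17-fold, adjusted p = 1.7e-07), as were SNAI2 with −0.77 (adjusted p = 9.4e-06) and FN1 with −0.59 (adjusted p = 0.000802), and ZEB1 was higher by 0.87 (adjusted p = 2.3e-06). The FN1 call was close to its fold threshold and was lost without Cis 12 h B (−0.52), Cis 12 h C (−0.55) or Cis 24 h C (−0.53), and under median centring (−0.49). In Cis/TM 24 h against Cis/TM 12 h, 3 were called (13.7% of all genes), with SNAI1 at −2.18 (adjusted p = 5.5e-08), SNAI2 at −0.90 (adjusted p = 1.3e-06) and ZEB1 at 0.95 (adjusted p = 7.4e-07). ZEB2 was higher by 0.52 in Cis 24 h (adjusted p = 0.00215) and by 0.51 in Cis/TM 24 h (adjusted p = 0.00195), under 1.5-fold. FN1 also fell with the drug pair, by −0.44 (95% interval −0.68 to −0.20, adjusted p = 0.00632), under 1.5-fold. Between the times of the drug pair 8 of the 9 genes had an unadjusted p under 0.05 (35.5% of all genes), and of cisplatin 5 (31.3%). In TM 24 h against TM 12 h, 0 of the 9 genes were called (0.00543% of all genes, which is 1 gene). An unadjusted p under 0.05 was found for 1 of the 9, CDH1 with 0.24 (adjusted p = 0.849), and for 5.8% of all genes.

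The interaction of the drugs is the difference of the drug pair from Control less the differences of cisplatin and of TM, so a value of 0 means that the log2 changes add up. At 12 h, 2 of the 9 genes were called (10.3% of all genes): SNAI1 with −0.96 (standard error 0.26, adjusted p = 0.0209) and ZEB1 with 0.63 (standard error 0.14, adjusted p = 0.00806). At 24 h SNAI1 alone was called (16.5% of all genes), with −1.11 (standard error 0.25, adjusted p = 0.00315), and ZEB1 had 0.56 (adjusted p = 0.00576), under 1.5-fold. In the called cases the level with both drugs lay nearer to Control than the sum of the changes with each drug. Control does not cancel in this term, so a shift shared by the Control arrays cannot be told apart from an interaction of the drugs. At 12 h the SNAI1 call was lost without Cis 12 h B, TM 12 h A, TM 12 h B, Cis/TM 12 h B or Cis/TM 12 h C (adjusted p from 0.0507 to 0.109), and the ZEB1 call without Cis 12 h A (0.52) or Control C (0.58).

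The levels of the 9 genes were also set against each other over the 20 arrays, as a description in which the arrays share 7 groups and 1 normalization. SNAI1 and ZEB1 correlated with Pearson's r = −0.971, SNAI1 and ZEB2 with −0.857, SNAI1 and FN1 with 0.954, SNAI1 and SNAI2 with 0.835, and ZEB1 and ZEB2 with 0.914. The correlation of SNAI1 with VIM was 0.190. These values follow the group means, since the deviations of single arrays from their group means correlated with −0.251 for SNAI1 and ZEB1, 0.0293 for ZEB1 and ZEB2, 0.558 for SNAI1 and ZEB2, and 0.0503 for SNAI1 and SNAI2. For SNAI1 and FN1 the deviations correlated with 0.751. Control C was the lowest of the 20 arrays for both genes (3.77 and 8.57), and this correlation was not computed without it.

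**Figure D3:**
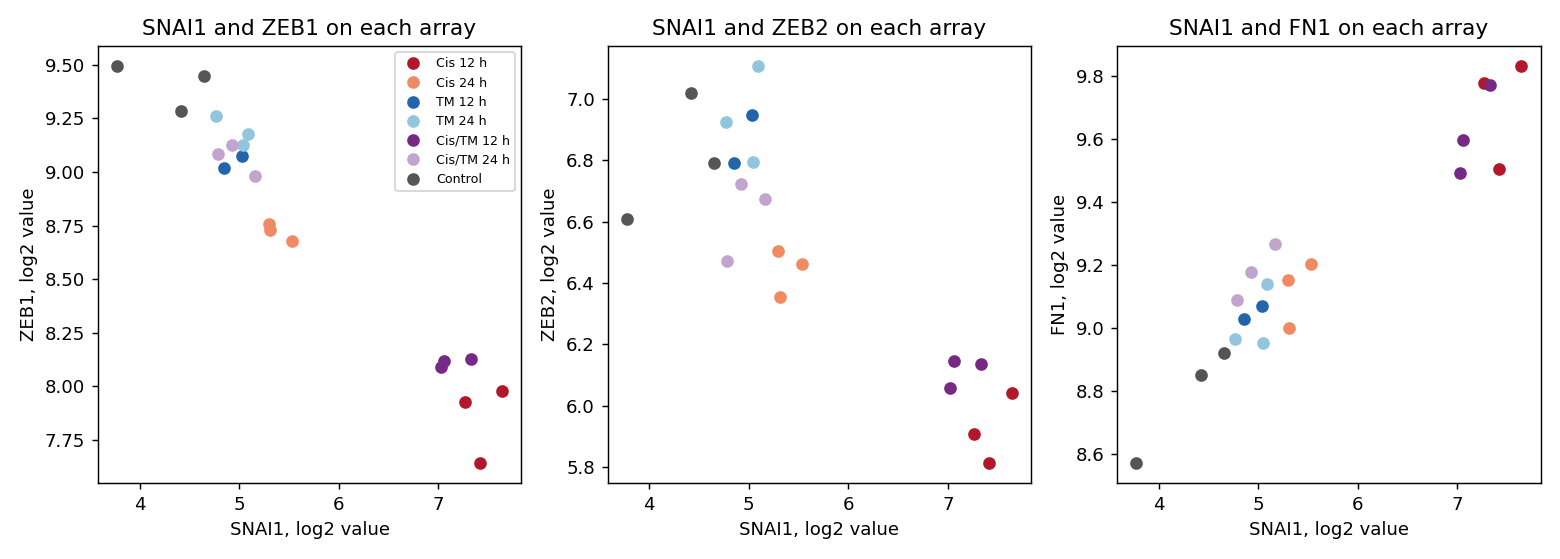
SNAI1 log2 value (x axis) against that of ZEB1, ZEB2 and FN1 (y axes) on each of the 20 arrays, coloured by group. The 6 arrays with 12 h of cisplatin, at SNAI1 values of 7.03 to 7.64, form a cluster of their own, with low ZEB1 and ZEB2 and high FN1.

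The 5 genes whose levels were most like those of SNAI1 over the 20 arrays were SDF2 (r = 0.989), MANF (0.985), ZNF425 (0.983), ETS2 (0.982) and TNFRSF10D (0.980). SDF2 and MANF encode proteins of the endoplasmic reticulum, ETS2 is a transcription factor, TNFRSF10D is a decoy receptor for the death ligand TRAIL, and ZNF425 encodes a zinc finger protein. The 5 were picked by this likeness in the same arrays, so a shared pattern against Control is built in and is no separate result. Against Control, MANF was raised only in Cis 12 h and Cis/TM 12 h. ETS2 alone of the 5 was raised in all 6 comparisons, as SNAI1 was. At 12 h it differed by 2.45 with cisplatin (adjusted p = 1.4e-11), 2.34 with the drug pair and 0.89 with TM, and at 24 h by 1.13, 0.72 and 0.67 for the same treatments. SDF2 was raised with cisplatin at 12 h (1.79) and 24 h (0.68) and with the drug pair at 12 h (1.69), and its other 3 differences, 0.33 to 0.49, were not called.

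The genes that were lowered differ from those that were raised in the length of the gene. ZEB1 spans 211 kb, ZEB2 136 kb and CDH2 244 kb on GRCh38.p14 in RefSeq, whereas SNAI1 spans 5.91 kb, SNAI2 3.83 kb and FN1 75.2 kb. Of the 3 genes not called, TWIST1 spans 4.59 kb, VIM 9.35 kb and CDH1 98.2 kb. Over all genes, 3120 spanned at least 100 kb, and 38.9% of them were lowered and 0.897% raised in Cis 12 h, with 5.02% lowered and 17.6% raised among the 15272 shorter genes. Of genes of 75 to 100 kb, the range that holds FN1, 20.1% were lowered and 2.5% raised there, so the rise of FN1 goes against this pattern. For the drug pair, 33% of the long and 3.52% of the shorter genes were lowered at 12 h, and 9.01% and 1.14% at 24 h. For cisplatin at 24 h the shares were 18.8% and 2.04%, and for TM they were 4.01% and 2.93% at 12 h, and 3.81% and 2.29% at 24 h. The difference of ZEB1 was lower than that of most long genes, since 211 of the 3120 had a lower difference in Cis 12 h and 262 in Cis/TM 12 h, and ZEB2 had 796 and 826 below it. CDH2, the longest of the 9 and not called in Cis 12 h, had 1266 long genes below it there, 764 in Cis/TM 12 h and 110 in TM 12 h. This split was chosen after the values of the 9 genes were seen, and the part of gene length in their change was not tested.

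**Figure D4:**
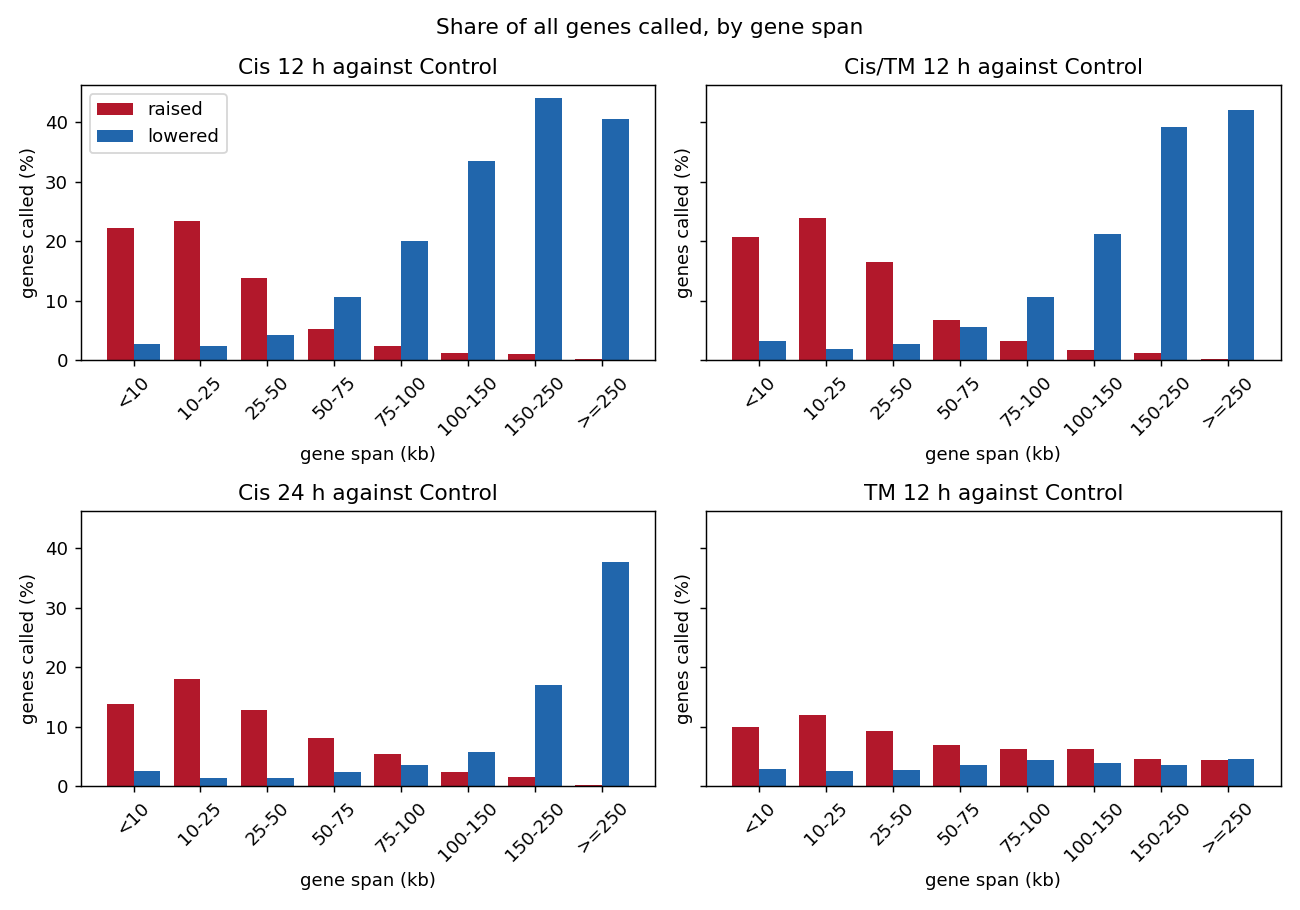
Share of all genes (y axis, percent) called raised or lowered against Control, by gene span in RefSeq (x axis, kb), in Cis 12 h, Cis/TM 12 h, Cis 24 h and TM 12 h. In Cis 12 h the share lowered runs from 2.76% of genes under 10 kb to 44.1% of genes of 150 to 250 kb.

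Around the 9 genes, 6 lists of genes with a role in EMT were counted, which held 151 measured genes. In Cis 12 h 14 of them were raised (9.27%, against 14.8% of all genes) and 29 lowered (19.2%, against 10.8%), and 22 of the 29 span at least 100 kb, as do 40 of the 151. By length, 22 of the 40 long and 7 of the 111 shorter list genes were lowered there, against 38.9% and 5.02% of all such genes. The shares of single lists given below are set against all genes, without regard to length. In Cis/TM 12 h 14 were raised (9.27%, against 15.2% of all genes) and 26 lowered (17.2%, against 8.55%), 22 of them from the 40 long genes. In Cis 24 h 13 were raised (8.61%, against 11.5%) and 8 lowered (5.3%, against 4.9%), shares near or below those of all genes. With the drug pair at 24 h the counts were 3 (1.99%, against 4.54%) and 5 (3.31%, against 2.48%). TM raised 12 (7.95%, against 8.99%) and lowered 4 (2.65%, against 3.11%) at 12 h, and raised 11 (7.28%, against 5.16%) and lowered 1 (0.662%, against 2.55%) at 24 h.

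Of 17 other transcription factors of EMT that were measured, 1 was raised and 4 lowered in Cis 12 h (5.88% and 23.5%, against 14.8% and 10.8% of all genes). In Cis/TM 12 h 0 were raised and 4 lowered (23.5%, against 8.55%), and in Cis 24 h 0 and 3 (17.6%, against 4.9%), so each of these lowered shares rests on 3 or 4 genes. Their median difference in Cis 12 h was −0.10, against −0.01 over all genes. TCF12, a basic helix-loop-helix factor, was at 7.69 ± 0.26 in Cis 12 h and 9.69 ± 0.09 in Control (SD, n = 3 each), a difference of −2.01 (adjusted p = 9.0e-11). TEAD1, the DNA-binding partner of YAP, fell by 1.25, and WWTR1, which encodes the coactivator TAZ, fell by 1.04. RUNX2, a runt-domain factor, was lowered in Cis 12 h (−1.26) and also in TM 12 h (−0.73, adjusted p = 0.0003). With TM, 1 gene of the list was raised and 1 lowered at 12 h (5.88% each, against 8.99% and 3.11%), and 1 and 0 at 24 h (5.88% raised, against 5.16%).

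Of 28 measured epithelial adhesion and splicing genes, 4 were raised (14.3%) and 3 lowered (10.7%) in each group with 12 h of cisplatin. Those shares are near the ones of all genes, which were 14.8% raised and 10.8% lowered in Cis 12 h, with 15.2% raised and 8.55% lowered for the drug pair. In Cis 24 h 4 were raised (14.3%, against 11.5%) and 0 lowered (4.9% of all genes). TM raised 2 (7.14%, against 8.99%) and lowered 2 (7.14%, against 3.11%) at 12 h, and raised 1 at 24 h (3.57%, against 5.16%). In Cis/TM 24 h none of the 28 was called, and 5 had an unadjusted p under 0.05, as had 33.1% of all genes. KRT8, a keratin of simple epithelia, was at 8.78 ± 0.11 in Cis 12 h and 7.10 ± 0.31 in Control (SD, n = 3 each), a difference of 1.68 (adjusted p = 8.8e-08), and it was raised by 1.05 in TM 12 h (adjusted p = 0.00041). JUP, the junction protein plakoglobin, rose by 1.21 in Cis 12 h and by 1.01 in Cis 24 h. In Cis 12 h PKP2, a plakophilin of desmosomes, differed by −1.32 and TJP1, the tight junction scaffold ZO-1, by −1.03, and neither was called at 24 h. The median of the list in Cis 12 h was 0.03.

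Of 37 measured mesenchymal and matrix genes, 3 were raised (8.11%, against 14.8% of all genes) and 4 lowered (10.8%, the share of all genes too) in Cis 12 h. With 12 h of both drugs, 4 were raised (10.8%, against 15.2%) and 3 lowered (8.11%, against 8.55%), so the shares lay at or below those of all genes. At 24 h cisplatin raised 2 (5.41%, against 11.5%) and lowered 1 (2.7%, against 4.9%), and the drug pair raised 1 and lowered 1 (2.7% each, against 4.54% and 2.48%). TM raised 2 (5.41%, against 8.99%) and lowered 1 (2.7%, against 3.11%) at 12 h, and raised 2 at 24 h (5.41%, against 5.16%). SPARC, a matrix glycoprotein, was raised at 12 h by 1.11 with the drug pair, 1.0 with cisplatin and 0.74 with TM, and at 24 h by 0.66 with cisplatin and 0.65 with TM. Its difference with the drug pair at 24 h, 0.41, was not called. MMP1, a collagenase, rose by 0.84 in Cis 12 h and by 1.11 in Cis/TM 12 h. FBN1, which encodes fibrillin-1, fell by 1.73 in Cis 12 h (5.42 ± 0.24 in Cis 12 h and 7.15 ± 0.18 in Control, SD, n = 3 each), and CDH11, a mesenchymal cadherin, fell by 0.89. The median of the list in Cis 12 h was −0.10.

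In the TGF-beta pathway, a main inducer of EMT, 4 of 25 genes were raised (16%, against 14.8% of all genes) and 7 lowered (28%, against 10.8%) in Cis 12 h. In Cis/TM 12 h 3 were raised (12%, against 15.2%) and 7 lowered (28%, against 8.55%), so the raised shares were near those of all genes. At 24 h cisplatin raised 1 (4%, against 11.5%) and lowered 3 (12%, against 4.9%), and the drug pair raised 1 (4%, against 4.54%) and lowered 3 (12%, against 2.48%). TM raised 3 at 12 h (12%, against 8.99%) and 3 at 24 h (12%, against 5.16%), and lowered 1 at 24 h (4%, against 2.55%). BAMBI, a pseudoreceptor that dampens TGF-beta signalling, was at 9.85 ± 0.03 in Cis 12 h and 7.0 ± 0.21 in Control (SD, n = 3 each), a difference of 2.85 (adjusted p = 1.0e-12). The ligand TGFB2 was lowered with cisplatin at 12 h (−1.77) and 24 h (−1.62). LTBP1, which holds latent TGF-beta in the matrix, was lowered in Cis 24 h (−2.16, adjusted p = 3.1e-09) and in Cis 12 h (−0.87). SMURF2, a ubiquitin ligase of the pathway, was lowered in Cis 12 h (−1.44) and in Cis 24 h (−0.92). The median of the list in Cis 12 h was 0.15.

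Among 32 measured partners and regulators of the SNAI1 and ZEB proteins, 2 were raised (6.25%, against 14.8% of all genes) and 7 lowered (21.9%, against 10.8%) in Cis 12 h. With the drug pair at 12 h, 3 were raised (9.38%, against 15.2%) and 6 lowered (18.8%, against 8.55%). At 24 h cisplatin raised 6 (18.8%, against 11.5%) and lowered 1 (3.12%, against 4.9%), and the drug pair raised 1 (3.12%, against 4.54%). TM raised 4 at each time (12.5%, against 8.99% at 12 h and 5.16% at 24 h) and lowered none of the 32. GSK3B, the kinase that marks Snail for degradation, was at 7.91 ± 0.10 in Cis 12 h and 9.44 ± 0.09 in Control (SD, n = 3 each), a difference of −1.52 (adjusted p = 2.6e-10). BTRC, a subunit of the ubiquitin ligase that recognizes marked Snail, had the same difference (adjusted p = 3.9e-08), and RCOR1, a corepressor subunit, fell by 0.88. EGR1, an immediate-early zinc finger factor, was raised at 24 h, by 1.22 in Cis 24 h and by 1.02 in Cis/TM 24 h. The arrays measure RNA, so they hold no value for the Snail protein.

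Of 12 measured catenins and cadherin regulators, 0 were raised and 4 lowered in Cis 12 h (33.3%, against 10.8% of all genes), 0 and 3 in Cis/TM 12 h (25%, against 8.55%), and none was called in the other 4 groups. ADAM10, a protease that cleaves cadherins, had −1.30 in Cis 12 h (adjusted p = 2.1e-09), AFDN, the junction protein afadin, −0.92, CTNNA1, alpha-catenin, −0.69, and IQGAP1, a scaffold protein, −0.60. At an unadjusted p under 0.05, 5 of the 12 differed with TM at 12 h (37.7% of all genes), and at 24 h 7 with cisplatin (45.5%), 2 with TM (33.7%) and 5 with the drug pair (33.1%). The median of the list in Cis 12 h was −0.24, against −0.01 over all genes.

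**Figure D5:**
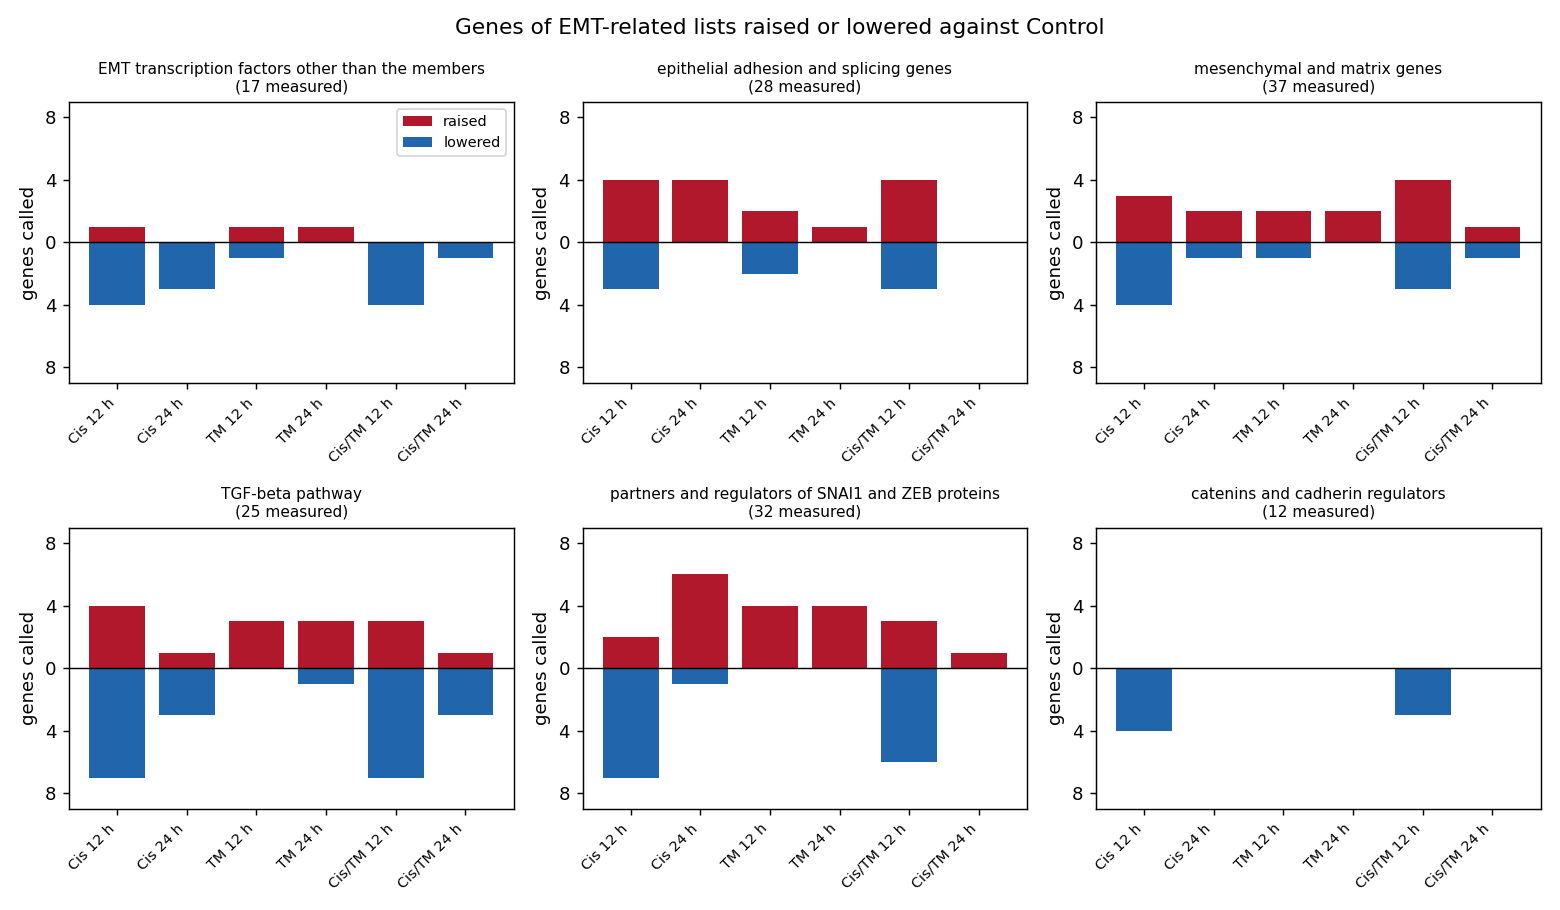
Number of genes called raised (upward bars) and lowered (downward bars) against Control in each of the 6 lists (panels) for the 6 treatment groups (x axis); the y axis counts genes in both directions from 0. Lowered genes are most frequent in Cis 12 h and Cis/TM 12 h, with 7 of 25 genes of the TGF-beta list in each, and each list holds 0 to 3 lowered genes in the other groups.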

How the data were processed

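RNA of MDA-MB-231 cells, 20 samples in 7 groups, was measured on Affymetrix Human Gene 1.0 ST arrays. The authors corrected, normalized and summarized the probes with RMA, and the deposited values are log2 intensities, used as given. RMA compresses differences at low signal and carries no detection call. The labels name Trizol and the methods an RNeasy kit. Of 33297 transcript clusters, 19460 carried 1 gene symbol in the platform annotation, 1754 several and 12083 none in the table used here, and a gene with several clusters (18417 genes in all) took the one of highest mean signal.

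A single limma 3.58.1 fit (R 4.3.3) held 7 group means over the 20 arrays, leaving 13 residual degrees of freedom, with no replicate block. After eBayes, p-values were adjusted by Benjamini-Hochberg over all genes, and calls made at 0.05 and 1.5-fold. The fit was tested on simulated data. Alternatives were other scalings, a filter on low values, the mean over clusters, a fit of only the groups compared, trended robust variance, unadjusted p, the replicate letter as a block, and leaving out arrays.

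The 9 genes and the lists were chosen with earlier results of these data known, among them the rise of SNAI1 in Cis 12 h, which is no independent support. Named list genes are up to 4 per list with the smallest adjusted p among those called against Control, and the genes most like SNAI1 the 5 with the highest Pearson's r.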

Additional observations from a re-analysis of the deposited data

Results flagged for a closer look

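Results are given here where the effect of 1 condition differed between times or drugs in the limma fit. Between Cis 24 h and Cis 12 h, 4 genes were called: SNAI1 (−2.06), SNAI2 (−0.77), FN1 (−0.59) and ZEB1 (0.87), on the log2 scale. Between Cis/TM 24 h and Cis/TM 12 h, 3 were called: SNAI1 (−2.18), SNAI2 (−0.90) and ZEB1 (0.95). The labels give the Control arrays no time, so the same arrays stand for both times and cancel in these contrasts, and a change with time in culture cannot be told apart from a change of the treatment effect. The interaction of the drugs differed from 0 for SNAI1 (−0.96) and ZEB1 (0.63) at 12 h and for SNAI1 (−1.11) at 24 h. In these terms Control does not cancel, so a shift shared by its arrays cannot be told apart from an interaction. Groups of 2 or 3 arrays were too small to test for outlying arrays.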

How the results depend on the processing

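Over 30 alternatives, the 32 called differences of the 9 genes kept their call in 916 of 956 values, lost it in 40 and reversed in 0. Many alternatives left out an array of no group compared, which leaves the difference itself unchanged, and unadjusted p cannot lose a call. The losses were of CDH2 against Control, SNAI2 in Cis 12 h, FN1 between the cisplatin times, and ZEB2 in Cis/TM 12 h. The rest were of SNAI1 in TM 12 h, TM 24 h and Cis/TM 24 h, and of SNAI1 and ZEB1 in the 12 h interaction. The 103 differences that were not called gained a call in 18 of 3064 values, and the sign of 69 such values changed while neither was called, so no direction is read from them. CDH1 and CDH2 gave no value with the lowest 25% of genes left out, since both are among them.

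The number of the 9 genes called in TM 12 h was 2, and 1 after median centring, quantile normalization, cyclic loess or the low filter, 0 when only the compared groups entered the fit, and 1 to 2 when leaving out each array. In TM 24 h it was 1, with 0 when only the compared groups entered the fit and 0 to 1 when leaving out each array. In Cis/TM 24 h it was 2, with 1 after cyclic loess, with the low filter or with only the compared groups, and 1 to 2 when leaving out each array. For the interaction at 12 h it was 2, with 1 when only the compared groups entered the fit, 1 to 2 when leaving out each array, and 1 without Cis 12 h A and TM 24 h A together, an alternative chosen after the data were seen. For the interaction at 24 h it was 1, with 2 after quantile normalization or cyclic loess and 1 to 2 when leaving out each array. The SNAI1 call in TM 12 h was lost without TM 12 h A (0.57) or TM 12 h B (0.75), and that in Cis/TM 24 h without Cis/TM 24 h A (0.57), beside the losses named above. With the low filter the counts fell because CDH2 was left out, and the cause of the other changes was not tested.

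The replicate letters showed no consistent pairing of the arrays, although pairing of some arrays is not excluded. Deviations of same-letter arrays from their group means correlated with a median of 0.00826 over 57 pairs (−0.423 to 0.613). Of these pairs 19 were over 0.1, and the median for arrays of different letters was 0.00354. Of the 20 arrays, 5 correlated best with their own letter. With the letter as a replicate block, FN1 in Cis/TM 12 h against TM 12 h was 0.59 and was called, which raised that count to 5 from 4, and no other call of the 9 genes changed. The 2 arrays of TM 12 h and the low signal of CDH1 and CDH2 limit what can be read from them.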
